A study of Mus musculus with 6 samples.

Results

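The let-7 and miR-98 guide strands were 10 of the 1300 miRNAs in the deposited table of mouse ovary small RNA. They were taken by name: mmu-let-7a-5p, mmu-let-7b-5p, mmu-let-7c-5p, mmu-let-7d-5p, mmu-let-7e-5p, mmu-let-7f-5p, mmu-let-7g-5p, mmu-let-7i-5p, mmu-let-7k and mmu-miR-98-5p, where mmu stands for mouse and is mostly left out below. A guide strand is the arm of a miRNA hairpin that is usually loaded into an Argonaute protein, and the opposite arm is called the passenger strand. Together the 10 took 25.1% ± 1.12 (SD over all 6 libraries) of the reads assigned to miRNAs. Among the miRNAs with a RefSeq sequence, no other group with a common seed took as much. The rule that lists them uses no measured value.

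The study compared ovaries of female C57BL/6J mice at normal pressure with ovaries of mice held in a hypobaric chamber, with 3 libraries per group. Normal pressure was 83.56 kPa (17.8 kPa oxygen) at 1588 m by the design text and 1500 m by the sample titles. The hypobaric group breathed air at 43.12 kPa (8.1 kPa oxygen), a simulated 6500 m, although the sample descriptions give 5000 m. Exposure lasted 15 days by the design text, but 15, 16 and 17 days for libraries 1, 2 and 3 of each group by the descriptions. The mice were 8 weeks old by the design text and 6 to 8 weeks old by the descriptions. Both groups had their cycles synchronized by gavage with levonorgestrel and ethinylestradiol, a progestin and an oestrogen, with doses of 0.1 and 0.02 mg/kg stated for the hypobaric group alone. Each group had 15 mice, and the labels do not tell single mice from pools. The p-values below therefore measure the spread between libraries, which may be partly technical.

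The let-7 family was first described in the nematode Caenorhabditis elegans as a timer of development, and in mammals it accumulates as cells differentiate. Its members share a seed, the bases near the 5′ end that pair with target mRNAs, and are known to repress growth regulators such as the RAS genes and Hmga2. The RNA-binding proteins LIN28A and LIN28B bind let-7 precursors and block their maturation, which links the family to germ cells and stem cells. The members come from several chromosomes, so that 1 member can vary while another does not.

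The mature sequences below, from RefSeq for GRCm38.p6, are shown because the members differ by very few bases, which decides how far their levels can be told apart. They are written 5′ to 3′ with the seed, bases 2 to 8, in capitals.
mmu-let-7a-5p: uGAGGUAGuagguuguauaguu
mmu-let-7b-5p: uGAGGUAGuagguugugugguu
mmu-let-7c-5p: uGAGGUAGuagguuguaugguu
mmu-let-7d-5p: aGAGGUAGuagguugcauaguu
mmu-let-7e-5p: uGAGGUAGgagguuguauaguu
mmu-let-7f-5p: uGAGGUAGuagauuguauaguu
mmu-let-7g-5p: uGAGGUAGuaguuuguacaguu
mmu-let-7i-5p: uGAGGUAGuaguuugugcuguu
mmu-let-7k: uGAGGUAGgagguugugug
mmu-miR-98-5p: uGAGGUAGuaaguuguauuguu
All 10 had the same seed, and no other miRNA of the table with a RefSeq sequence shared bases 2 to 8. The differences lie outside the seed, in the centre and the 3′ part and, for let-7d-5p, at the first base. Counted from 1 at the 5′ end, with the base of let-7a-5p first, let-7c-5p differs from let-7a-5p by A19G alone, let-7e-5p by U9G alone and let-7f-5p by G12A alone. By the same count, let-7b-5p differs by A17G and A19G, let-7d-5p by U1A and U16C, let-7g-5p by G12U and U18C, and miR-98-5p by G11A and A19U. The farthest from let-7a-5p is let-7i-5p, with G12U, A17G, U18C and A19U. The 19 bases of let-7k differ from those of let-7b-5p by U9G alone. Joining names that differ by 1 substitution links let-7a-5p, let-7b-5p, let-7c-5p, let-7e-5p, let-7f-5p and let-7k into 1 group of 6. No label tells how reads that fit several names were assigned, so the levels of these 6 are also given as a sum.

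The hairpins lie on 8 chromosomes (GRCm38.p6, RefSeq coordinates, GENCODE vM21 annotation). On the minus strand of chromosome 13, Mirlet7a-1 (48538179 to 48538272), Mirlet7f-1 (48537829 to 48537917) and Mirlet7d (48536012 to 48536114) follow each other. Each overlaps an exon of the long non-coding RNA 6720427I07Rik. On the plus strand of chromosome 15, Mirlet7c-2 (85706603 to 85706697) and Mirlet7b (85707319 to 85707403) lie 621 bases apart. Each overlaps an exon of the non-coding gene Lncppara. On the X chromosome, Mirlet7f-2 (151912346 to 151912428) and Mir98 (151913214 to 151913321) lie 785 bases apart, each in an intron of Huwe1, a ubiquitin ligase gene. Of the hairpins that share a transcript with miR-99, miR-100 or miR-125 genes, Mirlet7c-1 (chromosome 16, 77599657 to 77599750) lies in an intron of Mir99ahg, 656 bases from Mir99a. Mirlet7e (chromosome 17, 17830352 to 17830444) lies in an intron of Spaca6, 367 bases from Mir125a, and Mirlet7a-2 (chromosome 9, 41536716 to 41536811) lies 5211 bases from Mir100. Mirlet7g (chromosome 9, 106178840 to 106178927) lies in an intron of Wdr82. Mirlet7i (chromosome 10, 122985640 to 122985724) overlaps an exon of the pseudogene D630033A02Rik, and Mir7k (chromosome 5, 147283189 to 147283298) overlaps no annotated gene. Since let-7a, let-7c and let-7f each come from more than 1 hairpin, their guide strand levels cannot be assigned to a locus.

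Values are reads per 1000000 reads of a library total (RPM), and the totals ranged from 20800777 to 22559146 reads. Of these, 6852198 to 8701696 reads were assigned to miRNAs, 33.9% ± 3.14 (SD, n = 3) of the total at normal pressure and 39.1% ± 1.73 under hypobaric hypoxia. The ovary marker miR-202, with both arms summed, reached 998 to 1349 RPM at normal pressure and 2191 to 3462 RPM in the hypobaric group, while the liver marker miR-122-5p stayed at or below 1.51 RPM. The 7 red-cell miRNAs examined (both arms of miR-144, miR-486a and miR-486b, and miR-451a) summed to 726 to 1577 RPM at normal pressure and 9459 to 15085 RPM in the hypobaric group. All 7 had the higher mean under hypobaric hypoxia, and 6 were above 0 in all 6 libraries. The 4 leukocyte markers summed to 574 to 791 RPM and 923 to 1070 RPM respectively, without overlap, but miR-150-5p alone carried this: miR-223-3p and both arms of miR-142a overlapped. Normal-pressure library 2 and hypobaric library 3 stood apart from the other 4 in the naming of 1 let-7 passenger strand, as described for the passenger strands, so the main values are also given without both. In bulk tissue, a change in the number of cells of a type and a change in RNA per cell cannot be told apart.

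The most abundant guide strand was let-7c-5p, followed by let-7a-5p, let-7b-5p, let-7f-5p, let-7d-5p, let-7g-5p, let-7i-5p and let-7e-5p, with miR-98-5p and let-7k far behind. In the 3 normal-pressure libraries mmu-let-7c-5p reached 24811, 19637 and 24081 RPM, and in the 3 hypobaric libraries 25364, 25698 and 26710 RPM. These are the highest levels of the family in every library, and the hypobaric libraries lay above the normal-pressure libraries without overlap. The values of mmu-let-7a-5p, the member with the sequence of nematode let-7, were 17683, 15054 and 17463 RPM at normal pressure and 17687, 18085 and 19163 RPM in the hypobaric group. Here the groups only just failed to overlap, since hypobaric library 1 and normal-pressure library 1 lay side by side, and normal-pressure library 2 was the low one. Over all 6 libraries the mean of let-7c-5p was 24384 RPM and that of let-7a-5p 17523 RPM, and their ranges did not overlap.

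The member whose groups were farthest apart relative to their spread was mmu-let-7b-5p, whose hairpin lies in the same gene, Lncppara, as let-7c-2. It stood at 12040, 10248 and 14070 RPM at normal pressure and at 14801, 15981 and 17228 RPM in the hypobaric group. Every hypobaric library was above every normal-pressure library, with normal-pressure library 3 the closest. The next member, mmu-let-7f-5p, had 12097, 12317 and 10185 RPM at normal pressure and 11973, 12597 and 11600 RPM in the hypobaric group. Its groups overlapped, although hypobaric library 2 was the highest and normal-pressure library 3 the lowest of all 6. Over the 6 libraries let-7b-5p (mean 14061 RPM) exceeded let-7f-5p (mean 11795 RPM) in 4 libraries, the only neighbours in the order that changed places between libraries. The ranges over libraries also overlapped between let-7a-5p and let-7b-5p, between let-7f-5p and let-7d-5p, and between let-7d-5p and let-7g-5p, although each held its place in all 6 libraries.

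The next 4 members overlapped between the groups. The level of let-7d-5p, from the end of the chromosome 13 cluster, was 8911 ± 1286 RPM (SD, n = 3) at normal pressure and 9896 ± 411 RPM in the hypobaric group, with overlap. The level of let-7g-5p, from the intron of Wdr82, was 7262 ± 583 and 7189 ± 498 RPM. That of let-7i-5p was 4500 ± 464 and 4271 ± 562 RPM. For let-7e-5p, encoded beside miR-125a, it was 2118 ± 334 and 2374 ± 422 RPM. On the log2 scale none of these 4 differed by more than 0.16 in either direction.

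At the low end, mmu-miR-98-5p was the only member whose hypobaric libraries all lay below the normal-pressure libraries. Its values were 267, 317 and 211 RPM at normal pressure and 208, 210 and 193 RPM in the hypobaric group. The separation was narrow, because normal-pressure library 3 lay beside the hypobaric libraries and normal-pressure library 2 was the highest. Mir98 lies in an intron of Huwe1, as Mirlet7f-2 does, while let-7f-5p is also made from chromosome 13. The ratio of let-7f-5p to miR-98-5p was taken after the values were seen. There were 45.3, 38.9 and 48.4 reads of let-7f-5p for each read of miR-98-5p at normal pressure and 57.4, 59.8 and 60.1 under hypobaric hypoxia. The hypobaric ratios were all higher (59.1 ± 1.48 against 44.2 ± 4.83, n = 3, exact permutation test, two-sided p = 0.1). With 3 against 3, 0.1 is the smallest p this test can give. Without normal-pressure library 2 and hypobaric library 3 the difference between the mean ratios was 11.8. The rarest member, mmu-let-7k, had 1.19, 0.266 and 2.84 RPM at normal pressure and 2.22, 2.19 and 3.39 RPM in the hypobaric group, overlapping, where 3 reads are worth 0.133 to 0.144 RPM. These few reads differ from let-7b-5p by 1 base over the listed length, and whether they are reads of let-7b-5p was not tested.

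**Figure D1:**
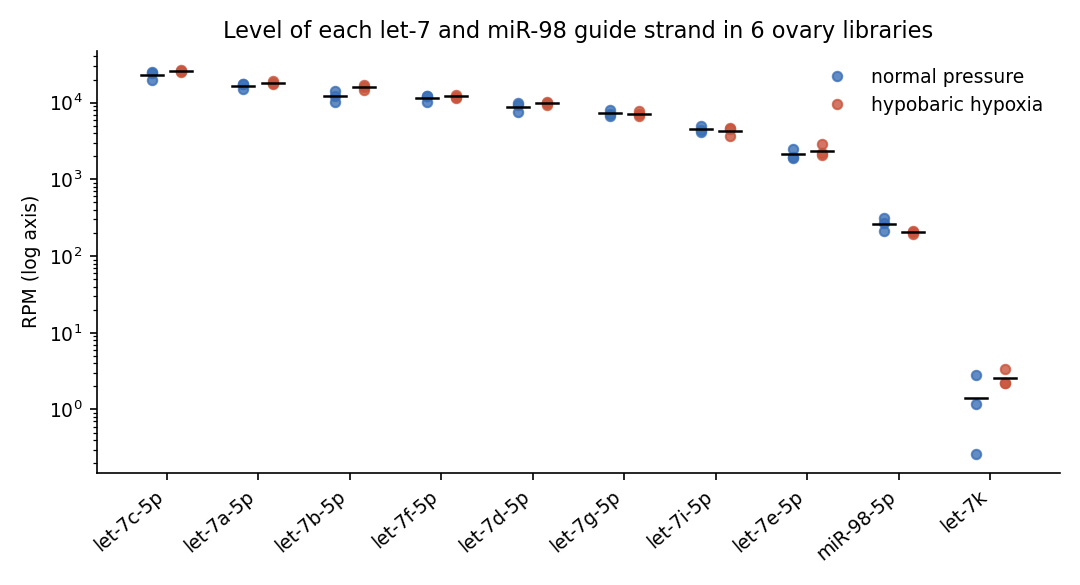
Level of each guide strand in RPM on a log axis, with 1 point per library (blue, normal pressure; red, hypobaric hypoxia) and the group mean as a bar, in order of the mean over 6 libraries. Levels run from 24384 RPM for let-7c-5p to 2.02 RPM for let-7k, and only miR-98-5p has all its red points below the blue ones.

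The plot of levels by member shows how uneven the family was: the 4 most abundant members held 73.3% ± 0.261 (SD, n = 3) of its reads at normal pressure and 75.1% ± 0.682 under hypobaric hypoxia. The coefficient of variation over the 6 libraries was 6.73% for let-7g-5p, 7.26% for let-7f-5p and 7.72% for let-7a-5p, the steadiest members. It was 18.2% for let-7b-5p, 20.3% for miR-98-5p and 56.0% for let-7k.

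Summed over the 10 members, the family reached 91188, 77814 and 89855 RPM at normal pressure and 93938, 95786 and 98971 RPM in the hypobaric group. All hypobaric libraries were higher (96232 ± 2546 against 86286 ± 7367 RPM, n = 3, exact permutation test, two-sided p = 0.1). Normal-pressure library 2 was the low one, and the difference of 9946 RPM fell to 5710 RPM without it and to 4340 RPM without it and hypobaric library 3. With libraries scaled by median of ratios it was 793 RPM. The RPM scale divides by the library total, of which miRNAs took a larger share under hypobaric hypoxia, so the family was also set against miRNA reads alone.

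As a share of miRNA reads, the family did not rise. It held 25.1, 25.6 and 25.7% at normal pressure and 22.9, 25.2 and 26.0% under hypobaric hypoxia. Hypobaric library 1 was the low one, and the others lay within 1 percentage point of each other. The means were 25.5% ± 0.316 and 24.7% ± 1.61 (n = 3), a difference of -0.769 percentage points (exact permutation test, two-sided p = 0.7). The difference was 0.133 points without hypobaric library 1 and -1.34 points without normal-pressure library 2 and hypobaric library 3. Relative to the authors' library total, it was 0.995 points in favour of hypobaric hypoxia.

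Hypobaric library 1, with the low share, also had the most miR-451a, a miRNA of the erythroid lineage. The values of miR-451a were 1549, 676 and 790 RPM at normal pressure and 14917, 9330 and 11328 RPM in the hypobaric group. However, hypobaric library 3 had more miR-451a than hypobaric library 2 and also the higher share, 26.0 against 25.2%. A link was not tested. With miR-451a left out of the denominator, the family held 25.5% ± 0.287 at normal pressure and 25.4% ± 1.55 under hypobaric hypoxia (n = 3, exact permutation test, two-sided p = 1). Hypobaric library 1 remained the lowest, at 23.7%. With the 10 most abundant miRNAs outside the family left out, the share was 43.7% ± 0.393 and 41.6% ± 2.07, lower in every hypobaric library (exact permutation test, two-sided p = 0.1). The difference was thus below 0 with each of these denominators, and its size depended on which other miRNAs were counted. Counting error is small here: the widest 95% Wilson interval reached 0.0327 percentage points either side, which covers counting error only, since PCR copies are not told apart without molecular identifiers.

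**Figure D2:**
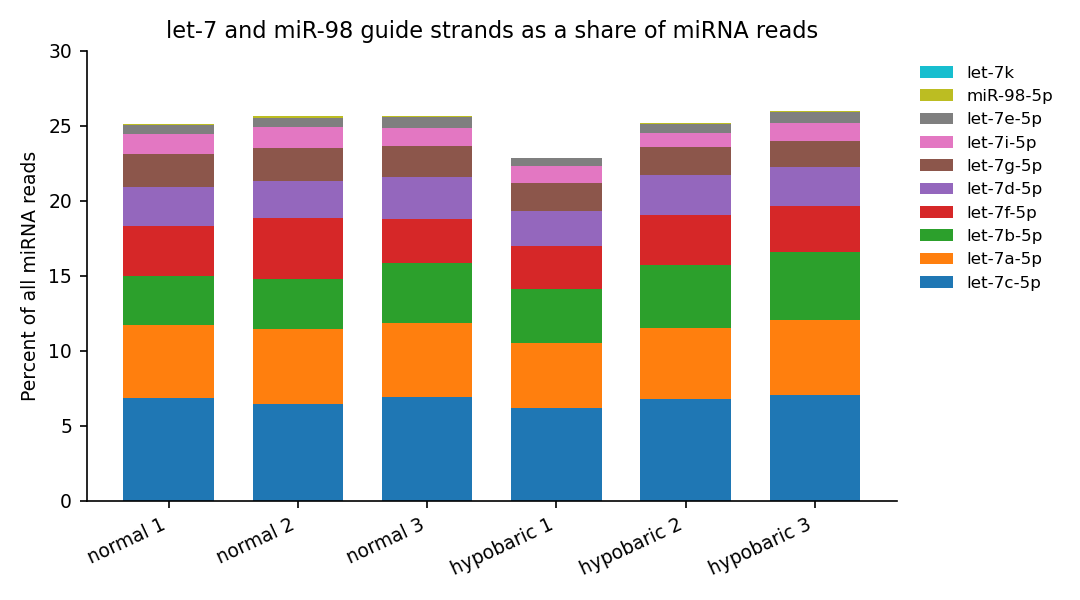
Percent of all miRNA reads held by each guide strand, stacked, in each of the 6 libraries. The stacks reach 22.9 to 26.0%, with hypobaric library 1 the lowest, and let-7c-5p and let-7a-5p form the base of every stack.

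The plot of stacked shares shows the family alone. Over the 867 rows with a RefSeq sequence, the family ranked first among seed groups in both conditions. Among those rows, the next group was that of miR-99a-5p, with 10.6% of miRNA reads at normal pressure and 10.5% under hypobaric hypoxia. That of miR-26a-5p followed, with 7.16 and 7.45%. The ranking does not hold miR-143-3p, which had 28942 ± 4523 RPM at normal pressure and 28422 ± 2632 RPM in the hypobaric group (SD, n = 3). Taken 1 at a time against all miRNA reads, let-7g-5p (2.14% ± 0.109 and 1.84% ± 0.0632), let-7i-5p (1.33% ± 0.0652 and 1.09% ± 0.119) and miR-98-5p (0.0793% ± 0.0226 and 0.0523% ± 0.00268) were lower in every hypobaric library. For each, the exact permutation test gave a two-sided p of 0.1 with n = 3. No member was higher in every hypobaric library on this scale. Over the 475 miRNAs tested, 26.5% did not overlap by this measure, 16.2% lower and 10.3% higher, beside 3 and 0 of the 10 members.

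Each member was then compared between groups on log2(RPM + 1) with limma, fitted over the 475 miRNAs whose mean reached 1 RPM. The p-values were adjusted over all 475 by the Benjamini-Hochberg method, and a miRNA was called at an adjusted p under 0.05. Of all tested miRNAs 4.84% were called, 3.16% higher and 1.68% lower under hypobaric hypoxia, and of the 10 members 0 were called. With values scaled to miRNA reads, 12 were called higher and 19 lower, where 15 were higher and 8 lower as reported. The edgeR and DESeq2 tests on recovered reads also called 0 members, against 5.26 and 13.3% of all tested miRNAs. At an unadjusted p under 0.05, limma passed 1 member, let-7b-5p, against 20.2% of all tested miRNAs. Hypobaric and normal-pressure RPM did not overlap for 26.7% of all tested miRNAs, 19.2% higher and 7.58% lower, and for 3 members (let-7a-5p, let-7b-5p and let-7c-5p) and 1 member (miR-98-5p) respectively.

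For let-7b-5p the log2 change was 0.41 (SE 0.14, 95% interval 0.09 to 0.73), a fold of 1.33, with a limma adjusted p of 0.146. It was positive in 18 of 18 alternative settings, and 0.24 without normal-pressure library 2 and hypobaric library 3. For miR-98-5p the log2 change was -0.36 (SE 0.21, 95% interval -0.82 to 0.11), with a limma adjusted p of 0.344, negative in 18 of 18 settings. It was -0.18 without those same libraries. In both counts of 18, settings that change only the filter, the variance trend or a block by replicate number cannot alter the log2 change. The value of let-7k, 0.69 (SE 0.37, 95% interval -0.14 to 1.53), rests on few reads: it was 0.30 without normal-pressure library 2, 1.1 without normal-pressure library 3, and 0.14 without normal-pressure library 2 and hypobaric library 3. The other 7 members lay between -0.08 for let-7i-5p and 0.19 for let-7c-5p, with limma adjusted p-values of 0.377 to 0.936. The interval for let-7c-5p ran from -0.08 to 0.46 and that for let-7a-5p from -0.12 to 0.39. With 3 libraries per group, these ranges hold small falls as well as rises up to the upper limits.

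The tested miRNAs as a whole were shifted in the same direction. The median log2 change was 0.15 over the 475 tested miRNAs and 0.15 over the 10 members. Above 0 were 65.7% of all tested miRNAs and 7 of the 10 members. Without the filter on the mean, the median over all 1300 miRNAs was 0.0014, so the shift does not extend to the rarest. Above that median were 49.9% of all tested miRNAs and 5 of the 10 members. Relative to it, let-7b-5p stood at 0.26, let-7c-5p at 0.04, let-7a-5p at -0.02 and miR-98-5p at -0.51. When values were scaled in other ways, including to miRNA reads alone, the median over the 475 tested miRNAs fell to between -0.05 and 0.03. That over the members fell to between -0.10 and -0.0040. The small positive values of let-7a-5p, let-7c-5p, let-7d-5p, let-7e-5p and let-7f-5p each turned negative under at least 1 of these scalings, while let-7b-5p stayed above and miR-98-5p below 0. An absolute log2 change under 0.5 was seen in 9 of 10 members and in 75.8% of all tested miRNAs.

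Summing the 6 names that are linked by single substitutions removed any exchange of reads among them. That sum was 65348 ± 5357 RPM at normal pressure and 74672 ± 2840 RPM in the hypobaric group (n = 3), and its log2 change was 0.20 (SE 0.10, limma adjusted p 0.284). The sum of all 10 changed by 0.16 (SE 0.09, 95% interval -0.05 to 0.38, limma adjusted p 0.351), and turned to -0.05 with values scaled to miRNA reads. Without normal-pressure library 2 and hypobaric library 3 the log2 changes of these sums were 0.10 and 0.07.

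**Figure D3:**
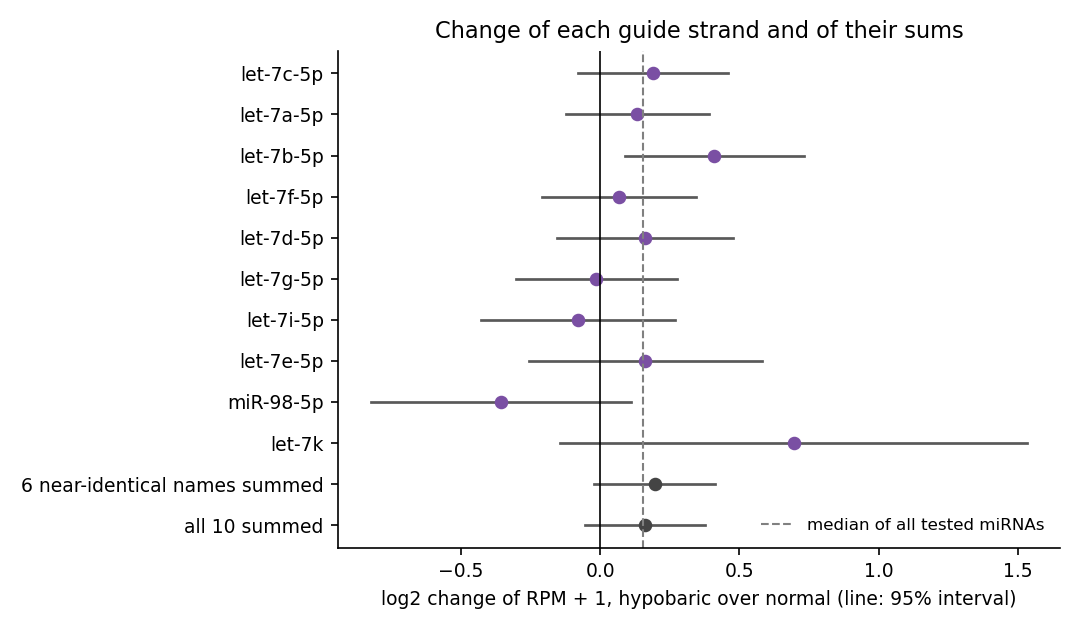
Log2 change of RPM + 1, hypobaric hypoxia over normal pressure, for each guide strand and for the sums of the 6 near-identical names and of all 10, with 95% intervals from limma (n = 3 per group). The interval of let-7b-5p, from 0.09 to 0.73, is the one that lies on 1 side of 0 before adjustment, and the dashed line marks the median of all 475 miRNAs, 0.15.

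The plot of log2 changes places let-7b-5p and miR-98-5p on opposite sides of the family, and of the 10 members only this pair did not overlap between the groups in composition. As a share of the family's own reads, which does not depend on the library total, let-7b-5p held 13.2, 13.2 and 15.7% at normal pressure and 15.8, 16.7 and 17.4% under hypobaric hypoxia. The groups did not overlap, though normal-pressure library 3 and hypobaric library 1 lay side by side. The mean rose from 14.0% ± 1.43 to 16.6% ± 0.828, by 2.60 percentage points (n = 3, exact permutation test, two-sided p = 0.1), and by 1.79 points without normal-pressure library 2 and hypobaric library 3. The share of miR-98-5p was 0.293, 0.407 and 0.234% at normal pressure and 0.222, 0.220 and 0.195% under hypobaric hypoxia. It was lower in every hypobaric library (0.311% ± 0.0877 and 0.212% ± 0.0150, exact permutation test, two-sided p = 0.1), and the difference was -0.0429 points without the same libraries.

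The other 8 members overlapped between the groups. The share of let-7g-5p was 8.43% ± 0.468 at normal pressure and 7.48% ± 0.709 under hypobaric hypoxia (n = 3, exact permutation test, two-sided p = 0.2). That of let-7i-5p was 5.22% ± 0.306 and 4.44% ± 0.608 (exact permutation test, two-sided p = 0.2). The share of let-7a-5p was 19.4% ± 0.0443 and 19.0% ± 0.294, and that of let-7c-5p 26.4% ± 1.04 and 26.9% ± 0.0961. For let-7f-5p it was 13.5% ± 2.25 and 12.5% ± 0.737. For let-7d-5p it was 10.3% and for let-7e-5p 2.46% in both groups. The number of members without overlap was 2 of 10 with all libraries, 4 without hypobaric library 1 and 6 without normal-pressure library 3. A share of family reads has no counterpart over all miRNAs. As a share of all miRNA reads, 26.5% of the 475 tested miRNAs did not overlap with all libraries, so 2 of 10 does not set the family apart.

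The 6 near-identical names together held 75.2, 76.0 and 76.0% of the family at normal pressure and 76.5, 77.9 and 78.4% under hypobaric hypoxia, which did not overlap (75.8% ± 0.476 and 77.6% ± 0.956, n = 3, exact permutation test, two-sided p = 0.1). The difference of 1.83 percentage points was smaller than the 2.60 points of let-7b-5p alone. Of the other names in the sum, let-7c-5p differed by 0.524, let-7e-5p by 0.0045, let-7k by 0.0011, let-7a-5p by -0.367 and let-7f-5p by -0.938 points. The remainder, made up of let-7d-5p, let-7g-5p, let-7i-5p and miR-98-5p, was lower by the same amount, as parts of 1 total must be. Ratios of let-7b-5p to let-7i-5p and to let-7g-5p, members outside the 6, were chosen after the values were seen and restate the same shares. Their hypobaric means were higher, with overlap. There were 2.70 reads of let-7b-5p for each of let-7i-5p at normal pressure and 3.80 under hypobaric hypoxia (n = 3, exact permutation test, two-sided p = 0.2). For let-7b-5p over let-7g-5p the ratio was 1.67 and 2.24 (exact permutation test, two-sided p = 0.2). Members differ in base composition, from 31.8% GC in let-7f-5p and miR-98-5p to 45.5% in let-7b-5p and 52.6% in let-7k. The mean GC content of the family's reads was 39.0% at normal pressure and 39.3% under hypobaric hypoxia (exact permutation test, n = 3, two-sided p = 0.3), and its part in the shares was not tested.

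**Figure D4:**
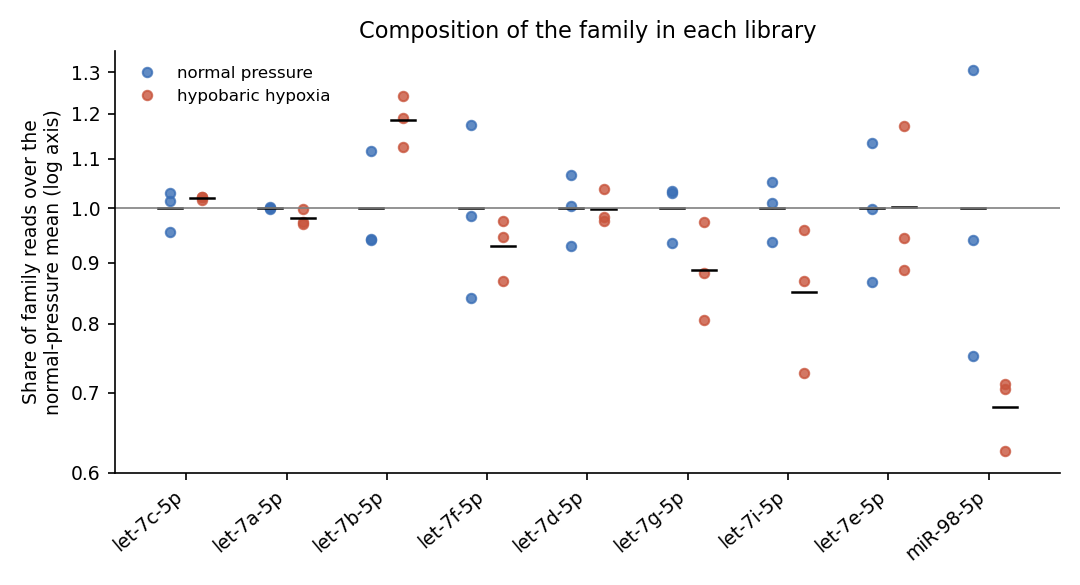
Share of the family's reads held by each member in each library, divided by that member's normal-pressure mean, on a log axis (blue, normal pressure; red, hypobaric hypoxia; bars, group means); let-7k is left out for its few reads. The hypobaric points of let-7b-5p all lie above and those of miR-98-5p all below the normal-pressure points, and the other members overlap.

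The plot of shares relative to normal pressure also shows that the spread within a group, for instance of let-7f-5p at normal pressure, was as large as most differences between groups. The passenger strands are another readout of the same hairpins. Of 12 let-7 and miR-98 passenger rows, 8 had a mean of at least 1 RPM and 0 of these were called (limma adjusted p 0.613 to 0.984, beside 4.84% of all tested). They were rare against the guide strands, with 1 exception. The passenger strand of let-7e made up 16.5% ± 2.94 of the reads of both arms at normal pressure and 15.4% ± 1.44 under hypobaric hypoxia (n = 3, exact permutation test, two-sided p = 0.7). Its levels were 378, 462 and 395 RPM at normal pressure and 420, 370 and 498 RPM in the hypobaric group, overlapping. For let-7d the share was 2.74% ± 1.07 and 2.02% ± 0.452 (exact permutation test, two-sided p = 0.5). The mean over 6 libraries was 0.293% for let-7i, 0.223% for miR-98, 0.0141% for let-7f, 0.000913% for let-7b and 0.00033% for let-7g. With so few reads at let-7b and let-7g, the guide strand is nearly the only product counted from either hairpin.

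The passenger strands of let-7a-1 and let-7c-2 have the same mature sequence in RefSeq, shown with bases 2 to 8 in capitals because the table lists it under both names.
let-7a-1-3p and let-7c-2-3p: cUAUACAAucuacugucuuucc
In normal-pressure libraries 1, 2 and 3, let-7a-1-3p had 0.048, 164 and 0.048 RPM, and let-7c-2-3p had 241, 0.975 and 215 RPM. In hypobaric libraries 1, 2 and 3, let-7a-1-3p had 1.27, 1.48 and 155 RPM, and let-7c-2-3p had 186, 186 and 1.65 RPM. So 99.4% of these reads in normal-pressure library 2 and 98.9% in hypobaric library 3 stood under let-7a-1-3p, against 0.0199 to 0.788% in the other 4 libraries. The values under either name thus did not follow the group labels, and no label tells how reads were given to names. The sum of both names was 207 ± 38.7 RPM at normal pressure and 177 ± 17.6 RPM in the hypobaric group, with -0.21 as its log2 change (SE 0.21, limma adjusted p 0.598); this sum was added after the values were seen. Among the 867 rows with a RefSeq sequence there were 3 such pairs of identical names, the other two being miR-199a-3p with miR-199b-3p and miR-465b-3p with miR-465c-3p. The miR-199 names did change places with the groups: miR-199a-3p had 16.9 to 55.3 RPM at normal pressure and 2153 to 2963 RPM in the hypobaric group, while miR-199b-3p had 1562 to 2407 and 2.59 to 51.8 RPM. Both names were among the 23 miRNAs called by limma, so 2 of those calls rest on the name given to 1 sequence. No guide strand of the family was identical to another.

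**Figure D5:**
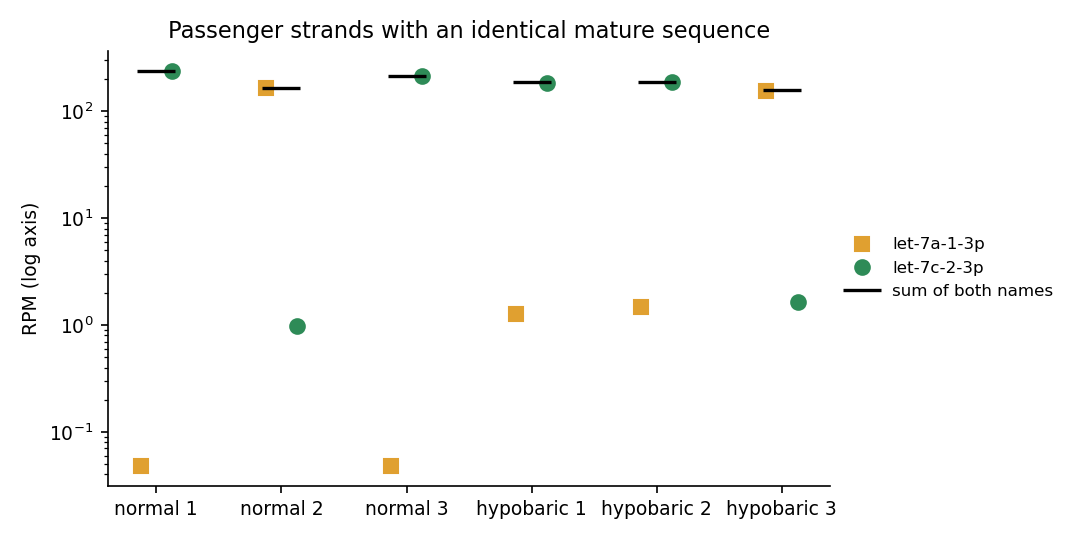
RPM of let-7a-1-3p (squares) and let-7c-2-3p (circles), which share 1 mature sequence, and of their sum (bars), in each library on a log axis. The names change places in normal-pressure library 2 and hypobaric library 3, while the sum stays between 157 and 241 RPM.

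The plot of identical passenger strands is why those libraries were left out as a pair. Over let-7a and let-7c together, which pools these names, passenger strands made up 0.585, 0.489 and 0.537% of reads at normal pressure and 0.451, 0.446 and 0.364% under hypobaric hypoxia. The hypobaric values were all lower (0.537% ± 0.0478 and 0.420% ± 0.0485, n = 3, exact permutation test, two-sided p = 0.1), a comparison chosen after the values were seen.

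Among miRNAs that share less of the seed, 2 rows matched bases 2 to 7 but not base 8. They are shown with bases 2 to 8 in capitals.
mmu-let-7j: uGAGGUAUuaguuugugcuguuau
mmu-miR-202-3p: aGAGGUAUagcgcaugggaaga
Although its name places it in the family, let-7j was counted at no more than 0.048 RPM in any library. The gonad-enriched miR-202-3p (chromosome 7, 139957695 to 139957716, minus strand) had 91.6, 65.1 and 183 RPM at normal pressure and 353, 507 and 270 RPM in the hypobaric group, without overlap. It was called higher by limma, with a log2 change of 1.81 (SE 0.38, adjusted p 0.0254), where 3.16% of all tested miRNAs were called higher. The call was lost with edgeR (adjusted p 0.0505) and without normal-pressure library 1 (limma adjusted p 0.0761), normal-pressure library 2 (0.0849), hypobaric library 1 (0.0987) or hypobaric library 2 (0.107). It was kept in the other alternative settings. Among them were DESeq2 (adjusted p 0.000139) and limma without normal-pressure library 2 and hypobaric library 3 (adjusted p 0.0159). The other arm, miR-202-5p, was also called higher (log2 change 1.15, limma adjusted p 0.0114). At its hypobaric mean of 377 RPM, miR-202-3p remained far below the 96232 RPM of the family.

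The miR-99, miR-100 and miR-125 miRNAs, which are encoded beside let-7c-1, let-7e and let-7a-2, were given by both arms. All 11 rows were tested and 0 were called by limma (adjusted p 0.280 to 0.746), beside 4.84% of all tested miRNAs. DESeq2 called 1, miR-125b-1-3p, lower (log2 change -0.65, adjusted p 0.0490), beside 13.3% of all tested. The most abundant, miR-99a-5p, was near let-7c-5p in level, with 21416 ± 2570 RPM at normal pressure and 24814 ± 1864 RPM in the hypobaric group (n = 3, log2 change 0.22, limma adjusted p 0.342). The level of miR-100-5p was 6914 ± 1006 and 8109 ± 1213 RPM.

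The 5 miRNAs outside the family that followed its sum most closely were ranked by the mean absolute difference of centred log2(RPM + 1) values over the 6 libraries. They were miR-92a-1-5p (0.0531), miR-26a-5p (0.0584), a predicted miRNA (0.0661), miR-28a-3p (0.0687) and miR-151-5p (0.0727), where the median over the 465 others was 0.232. Of these, miR-26a-5p stood in the range of the most abundant let-7 members, with a mean of 26108 RPM. All 6 libraries share their totals among these values, so the likeness is a description of the libraries.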

How the data were processed

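Groups and replicate numbers came from the sample titles. Total RNA (1.3 µg per library) was size-selected, ligated to adapters and read as single-end 50-base reads, per the labels' protocols. Bowtie2, DESeq2 and GRCm38.p6 are named in the submitters' processing notes with no role or version. The deposited table is named TPM by the authors, but within 0.0005 RPM 100% of its values are whole reads, at 0.0443 to 0.0481 RPM a read. The deposited values are therefore RPM, reads per 1000000 reads of a total set by the authors. No label tells what that total holds beyond miRNAs.

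The members and lists were chosen with earlier results of these data known. RPM values were tested as log2(RPM + 1), which understates changes of low miRNAs, with limma 3.58.1 in R 4.3.3, with an intensity trend and Benjamini-Hochberg adjustment over 475 miRNAs. Recovered reads entered edgeR 4.0.16 and DESeq2 1.42.0 as alternatives (25 and 63 miRNAs called, 0 members). Single values per library were compared by an exact permutation test, two-sided, with scipy 1.17.1. RefSeq mature sequences were matched by name for 867 of 1025 annotated miRNAs (84.6%), including all 10 members. All members, 3 lists (passenger strands, miR-99, miR-100 and miR-125 partners, and seed sharers), the marker lists and the 5 most similar miRNAs were named by rule, and any other name was chosen after its values were seen. The endothelial markers summed to 15323 to 20264 RPM at normal pressure and 17290 to 21334 RPM in the hypobaric group. Smooth muscle summed to 28007 to 36723 and 30048 to 35236, epithelium to 2496 to 3997 and 3193 to 3699, and skeletal muscle to 249 to 328 and 273 to 281. Within these sums, miR-145a-5p (smooth muscle), miR-200a-3p and miR-200b-3p (epithelium) were higher in every hypobaric library. The others of both lists, miR-143-3p, miR-200c-3p, miR-141-3p and miR-429-3p, overlapped with lower hypobaric means. None of these smooth muscle and epithelial markers was called by limma. The limma fit was tested on simulated counts, and the other tests were not.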

Additional observations from a re-analysis of the deposited data

How the results depend on the processing

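Of the 10 members, 0 were called in the analysis as reported and in each of 18 alternatives, with a lowest adjusted p of 0.0933 (miR-98-5p, DESeq2) and, by limma, of 0.107 (let-7b-5p, with the replicate block). Over all miRNAs 23 were called, against 63 with DESeq2, 47 without normal-pressure library 2 and hypobaric library 3, and 10 to 34 without 1 library each. The share of calls that were higher, 65.2% as reported, was 38.7 to 46.2% under other scalings, 44.0% with edgeR and 50.8% with DESeq2. Among passenger strands, partners and seed sharers 1 was called, against 0 with edgeR, 2 with DESeq2, 2 without the pair of libraries (let-7a-1-3p added) and 0 to 1 without 1 library each. The members whose share of family reads did not overlap numbered 2, and 2 to 6 without 1 library each. The passenger shares that did not overlap numbered 0, with 0 to 2 without 1 library each and 3 without the pair.

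The family's share of miRNA reads, -0.769 points, ranged from -1.42 to 0.133 without 1 library each, above 0 only without hypobaric library 1, and was 0.995 of the authors' total. Several small log2 changes turned. Scaled to miRNA reads, let-7a-5p was at -0.074, let-7c-5p at -0.017, let-7d-5p at -0.046, let-7e-5p at -0.045, let-7f-5p at -0.14, the sum of the 6 near-identical names at -0.012 and the sum of 10 at -0.046. By median of ratios, let-7a-5p was at -0.018 and let-7f-5p at -0.083. After quantile normalization, let-7a-5p and both sums were at 0, let-7c-5p at -0.035, let-7d-5p at -0.071, let-7e-5p at -0.035 and let-7f-5p at -0.26. With totals without the 10 most abundant miRNAs, let-7a-5p was at -0.12, let-7c-5p at -0.058, let-7d-5p at -0.087, let-7e-5p at -0.087, let-7f-5p at -0.18, the sum of 6 at -0.053 and the sum of 10 at -0.088. With edgeR, let-7a-5p was at -0.047, let-7d-5p at -0.022, let-7e-5p at -0.00028, let-7f-5p at -0.13 and the sum of 10 at -0.029. With DESeq2, let-7a-5p was at -0.036, let-7d-5p at -0.011, let-7f-5p at -0.12 and the sum of 10 at -0.012. Without normal-pressure library 2 and hypobaric library 3, let-7e-5p was at -0.047. Without 1 library each, let-7f-5p ranged from -0.019 to 0.12, let-7g-5p from -0.066 to 0.050 and let-7i-5p from -0.15 to 0.033. Differences in share of family reads also turned: without 1 library each, let-7c-5p ranged from -0.0653 to 0.921 points, let-7d-5p from -0.371 to 0.329, let-7e-5p from -0.206 to 0.170 and let-7f-5p from -2.01 to 0.238. Without the pair of libraries, let-7c-5p was at -0.0897, let-7e-5p at -0.207 and let-7f-5p at 0.648 points. With let-7c-5p left out of the denominator, let-7d-5p was at 0.0770. The cause was not tested.

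The replicate numbers did not pair the libraries: deviations from the group means correlated at 0.35, -0.47 and -0.29 for numbers 1, 2 and 3. Only 1 of 3 normal-pressure libraries correlated best with its own number. The highest correlation, 0.56, was across the groups, between normal-pressure library 2 and hypobaric library 3. With hypobaric libraries 1 and 2, normal-pressure library 2 was at -0.33 and -0.47. The cause of this likeness was not tested. With the number as a replicate block, 23 miRNAs and 0 members were called. Adding every other miRNA whose bases 2 to 8 match changed nothing by construction, since there was none among the rows with a RefSeq sequence. For the members' shares, the spread between libraries was wider than counting error, except for let-7a-5p at normal pressure and let-7k in the hypobaric group.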
